A study of Mus musculus with 2 samples.

Results

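The striated muscle myosin chains are the motor proteins of skeletal and heart muscle, and their RNA was measured here in newborn mouse pancreas. The members are 10 genes, Myh1, Myh2, Myh3, Myh4, Myh7, Myh8, Myl1, Mylpf, Myl2 and Myl3, of 16815 genes named on the array. They were taken up because several of them stood high in these same arrays, so every ratio between genotypes below is a description with no test. All gene probes whose RefSeq accession, symbol or product name named a member were kept, whatever their value, which gave 19 of 41174 probes. Clones described only as similar to a heavy chain, and Myh6 probes that also list the Myh7 accession, were not counted as members and are described apart.

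The mutant pool held pancreas RNA of 2 pups with 2 mutant copies of Glis3, a genotype that the submitters write as Glis3zf/zf or Glis3KO. The wild-type pool held pancreas RNA of 2 Glis3WT pups, and both pools were of postnatal day 3. Glis3 encodes a zinc finger transcription factor, and the series asked about its place in pancreatic beta cell development. Both pools were hybridised together to 2 two-colour oligonucleotide arrays, the first with the mutant in Cy5 and the wild type in Cy3, the second with the dyes exchanged. The arrays measure the same 2 pools, so each genotype has 1 sample, no p-value exists, and nothing here was repeated in other animals. The single Glis3 probe, at chr19:27594259-27597792 in the files, gave 115 and 128 in the mutant pool, against 155 and 115 in the wild-type pool, a mean log2 ratio of -0.0028. The labels do not say which stretch of Glis3 the allele lacks, so this probe does not check the genotypes.

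Muscle myosin is built from heavy and light chains. The heavy chains carry the motor head that splits ATP and pulls on actin, and the light chains wrap around the neck behind the head. Skeletal muscle changes its heavy chain as it matures, with the embryonic chain from Myh3 and the perinatal chain from Myh8 giving way to the adult fast chains from Myh2, Myh1 and Myh4 or the slow chain from Myh7. Myl1 and Mylpf encode the essential and regulatory light chains of fast fibres, and Myl3 and Myl2 those of slow fibres. Myh7, Myl2 and Myl3 also serve the ventricles of the heart, whereas the exocrine and endocrine cells of the pancreas use non-muscle myosins.

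The genes in the chromosome 11 cluster of skeletal heavy chains lie one behind the other, and several of them share letters in front of their starts. The sequences are the 250 bases upstream of the gene start in RefSeq, build GRCm38.p6, read 5′ to 3′ on the gene's strand. The windows are chr11:67199852-67200101 for Myh1, chr11:67237562-67237811 for Myh4 and chr11:67276874-67277123 for Myh8, all on the plus strand. They are joined by those of the light chain genes with the highest ratios, chr1:66945057-66945306 on the minus strand for Myl1 and chr7:127211358-127211607 on the plus strand for Mylpf. Capitals mark the MEF2 motif, the CArG box and the E-box CAGCTG, searched on both strands, and TATAAA on the sense strand.
Myh1: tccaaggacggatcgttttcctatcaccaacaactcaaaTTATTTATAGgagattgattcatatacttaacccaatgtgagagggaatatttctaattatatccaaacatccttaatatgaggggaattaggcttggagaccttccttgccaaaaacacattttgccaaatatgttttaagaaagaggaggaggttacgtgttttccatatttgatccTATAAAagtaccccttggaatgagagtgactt
Myh4: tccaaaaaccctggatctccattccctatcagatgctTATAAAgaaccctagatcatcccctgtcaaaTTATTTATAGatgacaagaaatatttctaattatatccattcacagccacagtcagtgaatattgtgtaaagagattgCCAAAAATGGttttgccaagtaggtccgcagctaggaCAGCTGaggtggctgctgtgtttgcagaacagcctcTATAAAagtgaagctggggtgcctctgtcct
Myh8: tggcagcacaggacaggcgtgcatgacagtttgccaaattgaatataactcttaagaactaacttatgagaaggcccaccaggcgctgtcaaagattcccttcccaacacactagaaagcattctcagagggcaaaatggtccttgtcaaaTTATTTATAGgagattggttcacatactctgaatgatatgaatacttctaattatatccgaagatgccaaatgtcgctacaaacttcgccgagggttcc
Myl1: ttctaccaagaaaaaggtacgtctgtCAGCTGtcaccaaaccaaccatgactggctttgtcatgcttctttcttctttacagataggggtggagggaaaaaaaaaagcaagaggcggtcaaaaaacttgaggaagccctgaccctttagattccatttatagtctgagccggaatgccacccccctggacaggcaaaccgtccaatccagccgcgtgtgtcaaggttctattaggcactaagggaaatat
Mylpf: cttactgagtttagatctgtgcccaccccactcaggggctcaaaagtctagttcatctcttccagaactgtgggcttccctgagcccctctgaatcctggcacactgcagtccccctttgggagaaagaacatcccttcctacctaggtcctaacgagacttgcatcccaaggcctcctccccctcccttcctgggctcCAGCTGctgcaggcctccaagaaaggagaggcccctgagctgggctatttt

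All 10 members matched a RefSeq upstream window. Myh7 and Myl2 had 2 windows each, of which the first was used, whereas the shares of promoters count every window of every gene. The MEF2 motif, the A and T rich letters read by MEF2 factors, was found in 3 of 10 members, against 2.92% of 32851 mouse promoters. In Myh1, Myh4 and Myh8 it was the same run, TTATTTATAG, beginning at positions -211, -182 and -99 from the start, and 0.113% of promoters held that run on either strand. The run was picked as the match most common among the members, so its share of promoters is a description and no test. These 3 genes lie in the same chromosome 11 cluster, so their matches are not independent. The 3 windows also shared 2 longer stretches, found after the sequences were read. One was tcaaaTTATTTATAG, whose sense strand matches among all promoters were those 3 alone. The other was ttctaattatatcc, present in 4 promoters, those of Myh1, Myh4, Myh8 and also Myh2, whose gene ratio fell short of the rule of size. CAGCTG, the E-box form bound by myogenic basic helix-loop-helix factors, was found in Myh4, Myl1 and Mylpf, 3 of 10 members against 13% of promoters. The looser E-box CANNTG, which takes in CAGCTG, was found in 8 of 10 members against 66.2%. TATAAA was found in Myh1, Myh3 and Myh4, 3 of 10 members against 7.59%, and the CArG box, read by serum response factor, in Myh4 and Myl3, 2 of 10 against 1.47%. A match describes letters in this window only.

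Of the 10 genes, 8 were higher in the mutant pool by a rule of size that asks for a mean change of at least 2-fold and at least 1.5-fold on each array. By that rule 0.242% of the 16560 detected genes were higher, 40 genes in all, and 8 of the 40 were myosin members. All 10 members had a ratio above 0 on both arrays, with a median log2 ratio of 1.94, against 0.0039 over all detected genes. The gene means ran from 0.16 for Myl3 to 4.46 for Myl1. In whole tissue RNA, more cells of a type and more RNA per cell cannot be told apart. A gene's ratio was read from its brightest unsaturated probe, and the technical SD of a gene mean, from the disagreement of the arrays, was 0.079 log2 units.

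**Figure D1:**
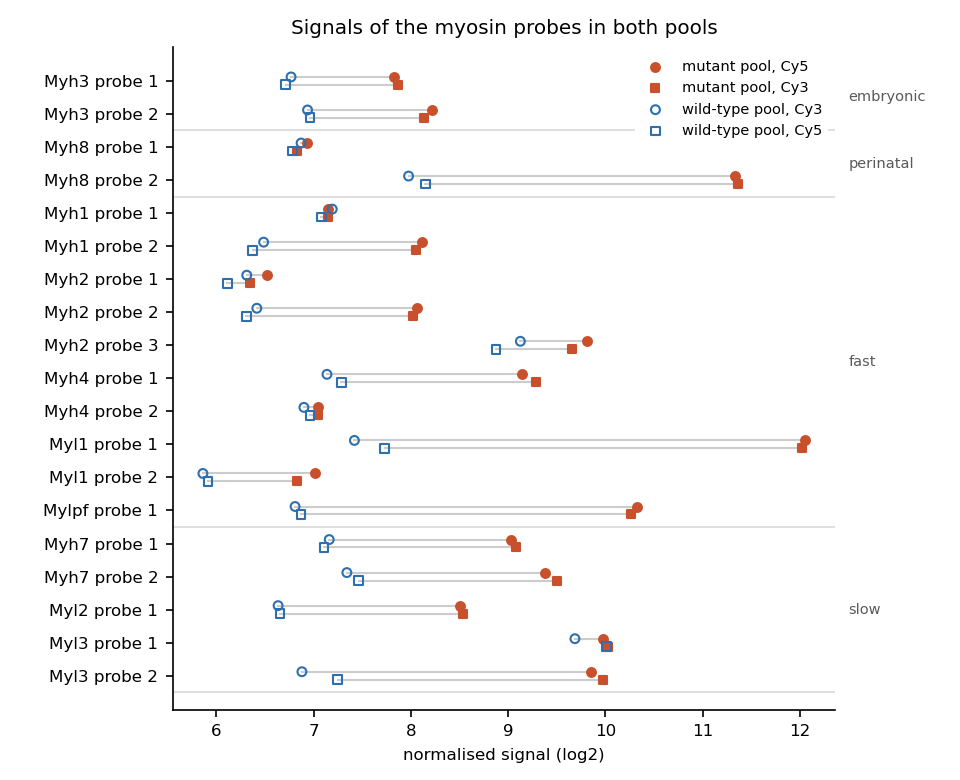
Normalised log2 signal of each of the 19 myosin probes on the horizontal axis, in the mutant pool (filled) and the wild-type pool (open), with circles for the first array and squares for the dye exchange. Grey lines join the 2 pools on 1 array. Mutant signals stand to the right of wild-type signals for 18 of the 19 probes on both arrays, and signals of different probes are not comparable in level.

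The signals given for a pool are mean spot intensities, background included, on the first and then the second array. Each ratio is the log2 of mutant over wild-type signal after normalisation. Signals of different probes cannot be ranked against each other. Intensity in 1 dye is not that in the other, so ratios rest on the normalised values.

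The fast light chains showed the highest ratios. The Myl1 probe used for the gene, at chr1:67216671-67216730 in the coordinates of the files, had signals of 4166 and 3677 in the mutant pool, against 216 and 212 in the wild-type pool. The log2 ratios of 4.63 and 4.29 average to a 22.0-fold higher signal in the mutant, and the gene had rank 2 among detected genes ordered from the highest ratio. The pools are far apart on both arrays. Mylpf, the regulatory light chain of fast fibres, had 1255 and 1115 in the mutant pool, against 144 and 116 in the wild-type pool, from the single probe spanning chr7:121262967-121263203. Its log2 ratios of 3.51 and 3.40 average to 10.96-fold, rank 4. These 2 genes encode partners on the same fast heavy chains.

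The perinatal heavy chain gene Myh8 followed, read from the probe at chr11:67034074-67034133. Its signals were 2514 and 2346 in the mutant pool, against 309 and 279 in the wild-type pool. The log2 ratios were 3.35 and 3.22, a 9.75-fold mean and rank 5. Perinatal myosin is a prominent heavy chain of muscle around birth. Both mutant signals were above both wild-type signals.

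The embryonic heavy chain gene Myh3 had a smaller ratio. Its probe at chr11:66827006-66827065 gave 288 and 272 in the mutant pool, against 154 and 120.3 in the wild-type pool. The log2 ratios of 1.28 and 1.18 average to 2.34-fold, rank 33. Its other probe overlaps this one by 32 bases and averaged 2.15-fold, so the 2 probes are not independent readings.

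The adult fast heavy chains Myh4, Myh1 and Myh2 had intermediate to low ratios. For Myh4, the chain of the fastest fibres, the probe at chr11:66984953-66985012 gave 554 and 575 in the mutant pool, against 177 and 152.5 in the wild-type pool. Its log2 ratio was 2.01 on each array, 4.02-fold. For Myh1, the probe at chr11:66950087-66950146 gave 268 and 259 in the mutant pool, against 115 and 80.2 in the wild-type pool. Its log2 ratios of 1.63 and 1.68 average to 3.15-fold. Both genes had mutant signals above the wild-type signals on either array. For Myh2, the chain of the oxidative fast fibres, the brightest probe at chr11:66923101-66923160 gave 882 and 728 in the mutant pool, against 670.1 and 459 in the wild-type pool. Its log2 ratios of 0.69 and 0.78 average to 1.67-fold, short of the rule of size.

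Of the slow chains, Myh7 and Myl2 were higher by the rule and Myl3 was not. Myh7, the slow and ventricular heavy chain on chromosome 14, gave 653 and 660.3 in the mutant pool, against 204 and 173 in the wild-type pool, at chr14:49487190-49487249. Its log2 ratios of 2.03 and 2.04 average to 4.10-fold, and a second Myh7 probe that overlaps it by 55 bases averaged 1.92. Myl2, the slow regulatory light chain on chromosome 5, gave 355 and 356 in the mutant pool, against 129 and 97.7 in the wild-type pool, from the probe spanning chr5:121256264-121257214. Its log2 ratios of 1.87 and 1.88 average to 3.67-fold. Myl3, the slow essential light chain on chromosome 9, gave 985 and 936 in the mutant pool, against 979.8 and 1017 in the wild-type pool, from its brightest probe at chr9:110805119-110805178. The log2 ratios of 0.29 and 0.02 average to 0.16, and the signals of the pools overlap.

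**Figure D2:**
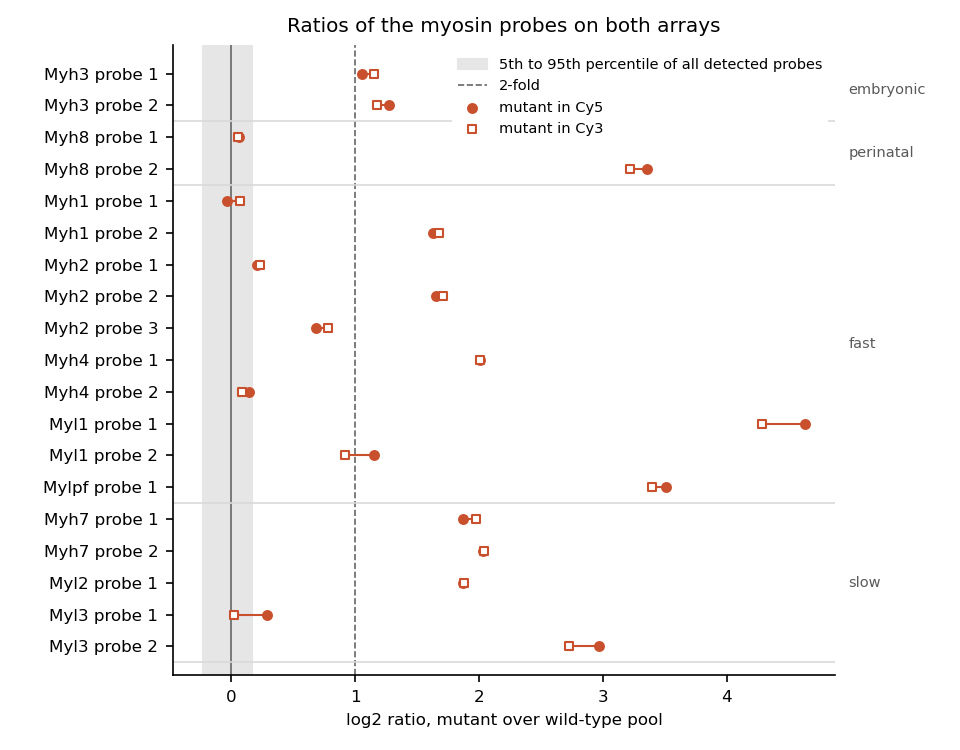
Log2 ratio of the mutant over the wild-type pool for each of the 19 myosin probes, grouped by isoform class, with filled circles where the mutant was in Cy5 and open squares where it was in Cy3. The grey band runs from -0.23 to 0.16, the 5th to 95th percentiles of all detected probes, and the dashed line is 2-fold. High and low probes of the same gene stand side by side in Myh8, Myh1, Myh2, Myh4 and Myl3.

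Split by isoform, the fast and the slow sets overlapped. The 5 fast genes had a median log2 ratio of 2.01, with 4 higher by the rule and a range of 0.74 to 4.46. The 3 slow genes had a median of 1.88, with 2 higher by the rule and a range of 0.16 to 2.04. The single perinatal gene had 3.29 and the single embryonic gene 1.23. The 6 heavy chains had a median of 1.83 with 5 higher by the rule, and the 4 light chains 2.67 with 3 higher. The fast over slow order depends on the choice of probe: with the median over a gene's probes, the fast median was 1.06 and the slow median 1.88. No difference between these sets was tested.

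In the order of ratios, Myl1 stood above Mylpf, and Mylpf 0.17 log2 units above Myh8. Myh8 stood 1.25 above Myh7. Myh7, Myh4 and Myl2 lay close, with steps of 0.03 and 0.13, against a technical SD of 0.112 for a difference of 2 gene means. Myh1 came 0.22 below Myl2, and Myh3, Myh2 and Myl3 followed at steps of 0.43, 0.49 and 0.58. Mylpf and Myh8, and each pair of neighbours from Myh7 down to Myh1, were therefore closer than 2 technical SDs. By the scanner software's ratios the order within the last 4 turned, with Myl2 at 2.80, Myh1 at 2.77, Myh4 at 2.51 and Myh7 at 2.46, and Mylpf at 4.28 stood further above Myh8 at 3.58.

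Folds depend on how dim spots are treated. The background correction adds an offset of 50 and draws in the ratios of dim spots, and the scanner software's own ratios, which have none, gave 6.83-fold for Myh1, 6.94-fold for Myl2 and 19.4-fold for Mylpf. Those 3 genes and 7 of the 13 probes past the rule moved by over 1.5 times, and 8 genes passed the rule under both.

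The probes of one gene often disagreed. Of the 19 probes, 13 passed the rule, against 0.141% of 38930 detected probes, and 18 had ratios above 0 on both arrays. The 13 include the second Myl1 probe, whose ratio is only a bound of at least 1.95-fold. Among probes well above background in both pools on both arrays 12 passed, and with the mutant in Cy3 alone 12 did. Every one of the 10 genes had at least 1 probe past the rule, and 5 genes, Myh1, Myh2, Myh4, Myh8 and Myl3, had both kinds. The widest gap between 2 measured probes of a gene was 3.23 log2 units, in Myh8. In the mutant pool all 19 probes were well above background on both arrays, and 18 were in the wild-type pool.

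Myh8 shows the pattern in its clearest form. A second probe lies 23.54 kb upstream in the gene, at chr11:67010537-67010596, and gave 118 and 120.5 in the mutant pool, against 147.5 and 106 in the wild-type pool. Its mean log2 ratio was 0.06, against 3.29 for the downstream probe. The upstream probe therefore sat inside the band of all detected probes.

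Myl3 differed in the same way. Its downstream probe, 5.31 kb further along and spanning chr9:110810426-110810720, gave 905 and 915 in the mutant pool, against 152.1 and 148 in the wild-type pool. The mean log2 ratio was 2.85, or 7.21-fold, against 0.16 for the brighter upstream probe. The call on Myl3 thus depends on which probe stands for the gene.

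Myh1 had an upstream probe 15.11 kb away with 139 and 145 in the mutant pool, against 183 and 131 in the wild-type pool. Its mean log2 ratio was 0.02, against 1.66 for the downstream probe. Myh2 had 3 probes. The upstream one averaged 0.22, and the remaining pair, which begin 42 bases apart and overlap by 18 bases, averaged 1.68 and 0.74. The probe with 1.68 gave 260 and 255 in the mutant pool, against 112 and 76.8 in the wild-type pool, and passed the rule.

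Myl1's second probe rests on a cDNA record whose product name is that of the gene and spans chr1:67222576-67226823. It gave 125 and 124 in the mutant pool, against 78.3 and 59.1 in the wild-type pool. The wild-type signal was not well above background on either array, so its ratio is only a bound, at least 1.95-fold higher in the mutant. It lies upstream of the probe with 4.46, since the gene runs on the minus strand.

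In Myh1, Myh2, Myh8 and Myl3 the most upstream probe had the lowest ratio of its gene. In Myh2 this did not hold by the software's ratios, which were 0.85 for the upstream probe and 0.81 for the brightest one. Myl1 is not placed, since its upstream ratio is a bound. Myh4 went the other way: the probe 1.03 kb downstream, at chr11:66985983-66986042, gave 128 and 137 in the mutant pool, against 151.5 and 119.7 in the wild-type pool. Its mean log2 ratio was 0.11, against 2.01 upstream. Heavy chain genes are near copies of each other, and cross-hybridisation between them was not tested. Probe letters were not used here.

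**Figure D3:**
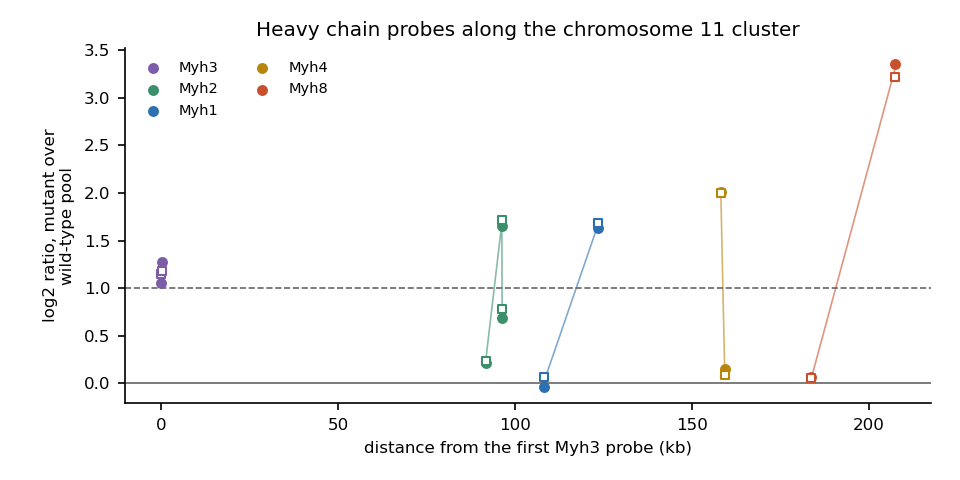
Log2 ratio of the mutant over the wild-type pool for the 11 heavy chain probes on chromosome 11, against distance in kb from the first Myh3 probe. Filled circles stand for the mutant in Cy5, open squares for the mutant in Cy3, and lines join the probes of a gene. Within Myh1 and Myh8 the ratio is higher at the downstream probe, and within Myh4 at the upstream probe.

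Other probes of the same loci, not counted as members, had mean log2 ratios of 0.25 or lower. A clone described as unclassifiable, at chr11:66950151-66950210, lies just past the Myh1 probe with 1.66. It had 264 and 271.5 in the mutant pool, against 311 and 287 in the wild-type pool, and a mean log2 ratio of 0.02. Whether this clone belongs to Myh1 was not tested. A clone described as similar to Myh2, at chr11:66899737-66899796, had signals of 1065 and 969 in the mutant pool, against 1207 and 967 in the wild-type pool, and a mean log2 ratio of 0.12. Clones described by a type 3 heavy chain, beside the upstream Myh8 probe, had 0.12 and 0.10, and the clone with 0.10 carries a number that RefSeq lists as a synonym of Myh8. A predicted record described as similar to Myh13, the extraocular heavy chain gene, had -0.02. Myh6, the alpha cardiac heavy chain gene next to Myh7, had 0.21 and 0.25, both above the 95th percentile of 0.16 over all detected probes. Their signals were dim, from 74.8 to 123.4 over both pools, against 95th percentiles of 60.8 to 76.2 for negative controls. Both Myh6 probes also list the Myh7 accession. No probe outside the member genes at these loci passed the rule. With that clone and both Myh6 probes counted, 13 of 22 probes passed it.

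Genes listed as thin filament partners of fast myosin were also high, which had been seen in these data when the lists were drawn up. Of 5 genes, 4 passed the rule, with a median of 3.19. The highest was Tnnc2, the calcium-binding troponin subunit of fast fibres, with signals of 6282 and 5950.4 in the mutant pool, against 565 and 639 in the wild-type pool, or 12.1-fold. Acta1, skeletal actin, had a mean log2 ratio of 3.22, Tnni2, the fast inhibitory troponin subunit, 3.19, and Actn3, a Z-disc protein of fast fibres, 0.49. Acta1 is not particular to fast fibres and Actn3 belongs to the Z-disc, so this list is a mixed one. Of 3 slow thin filament genes, 1 passed the rule, Tnnt1 at 1.31, and the median was 0.55, with Tnni1 lowest at 0.25.

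Genes listed as partners of the thick filament had lower medians. None of 9 detected genes of 11 listed passed the rule, with a median of 0.32. Ratios were above 0 on both arrays in 5 of them and below 0 on both in 1. Myom2, an M-band protein, was highest at 0.95, and Unc45b, a myosin chaperone, lowest at -0.20. By the software's ratios Myom2 had 1.15 and was the 1 gene of the list past the rule. None of 4 detected genes of 7 other striated myosins passed the rule, with a median of 0.24 and Myl4, the atrial and embryonic light chain gene, highest at 0.26. None of 9 smooth muscle and non-muscle myosin genes passed it, with a median of 0.04, from -0.27 for Myh9 to 0.39 for Myh10.

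Regulators of muscle formation lay near 0. Of 9 listed myogenic factors, 8 were detected and none passed the rule, with a median of 0.02, from -0.21 for Myod1 to 0.13 for Myf6. Their summed signal was 6925 to 7292 in the mutant pool, against 8052 to 8687 in the wild-type pool. The sum for the 10 myosin members was 10924 to 11919 in the mutant pool, against 2706 to 3099 in the wild-type pool. Sums in this and later paragraphs are of raw signals, not normalised and carried by the brightest probes, so the ratios compare the pools.

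**Figure D4:**
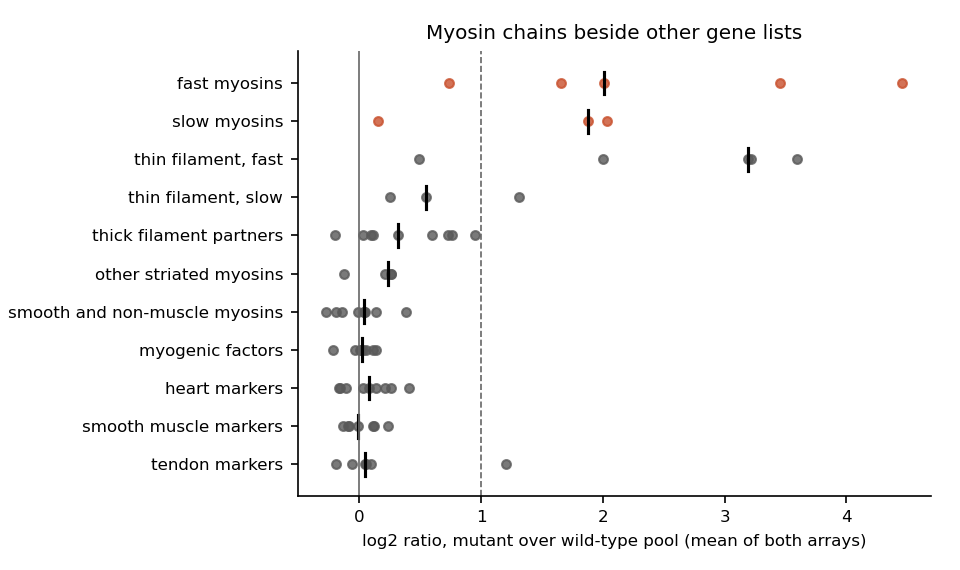
Mean log2 ratio of the mutant over the wild-type pool for each detected gene (dots) of the fast and slow myosins (red) and of 9 other gene lists (grey), with the median of each list as a black bar and 2-fold as a dashed line. Medians are 2.01 for fast myosins, 1.88 for slow myosins and 3.19 for the list of fast thin filament genes, which also holds Acta1 and Actn3. They lie between -0.01 and 0.55 for the other lists.

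Heart and other mesenchymal markers were set beside the chains because Myh7, Myl2 and Myl3 are shared with the heart. None of 9 heart marker genes passed the rule, with a median of 0.08, from -0.16 for Mybpc3 to 0.41 for Tnnt2. By the software's ratios Tnnt2, dim in both pools, had 1.44 and was the 1 heart gene past the rule, and the median was 0.10. The 9 genes had a summed signal of 3826 to 3878 in the mutant pool, against 4427 to 4445 in the wild-type pool. Smooth muscle markers had a median of -0.01 over 7 genes, none past the rule, and sums of 14913 to 15661 in the mutant pool, against 16453 to 16856 in the wild-type pool. Of 6 tendon markers, 1 passed the rule, Scx, the tendon transcription factor, with 1025 and 929 in the mutant pool, against 547 and 438 in the wild-type pool, a mean of 1.21. The other tendon markers lay between -0.19 and 0.10. The part of these cell types in the myosin ratios was not tested.

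The pancreas label was checked against its own markers. All 13 acinar markers were detected, and 7 were saturated in both pools and give no ratio. The summed raw signal of the other 6 was 42453 to 48578 in the mutant pool, against 66414 to 69646 in the wild-type pool. Their median log2 ratio after normalisation was -0.25. Of these 6, Ctrl was lower at -1.11 and the rest were not past the rule. Of 7 endocrine markers 6 were lower, among them Ins1 at -4.16, and Iapp at -0.51 was not. Ins2 was saturated in the wild-type pool on both arrays and Ins1 on 1, so both ratios and the wild-type sum are limits. The sum was 42248 to 56072 in the mutant pool, against 222788 to 229063 in the wild-type pool. None of 7 duct, 5 adipocyte or 4 liver markers passed the rule, with medians of 0.16, 0.05 and 0.13. The part of these cells in the myosin ratios was likewise not tested.

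The 5 genes whose pair of array ratios came nearest to the members' median pair of 1.94 and 1.94 were Gp2, Reg3g, Reg3a, Tnnt3 and St8sia3. Their distances, in log2 units over the 2 arrays, were 0.018, 0.17, 0.18, 0.21 and 0.22. Only Tnnt3, the fast troponin T, is a muscle gene by name among these 5.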

How the data were processed

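RNA was measured in 1 pool of 2 pups per genotype on 2 arrays, a dye exchange of the same pools. The members, lists and rules were chosen with earlier results of these data known. Per the file headers, the deposited scanner files hold mean and background intensity per spot on a linear scale, and a log10 ratio that the software made from background-subtracted, dye-normalised intensity values. The deposited series table holds log2 ratios, with a median of 0, and 99.99% and 99.98% of its probes match the scanner software's mutant to wild-type ratio to 0.002 log2. Feature Extraction is given as version 7.5 per the labels and 8.5.1.1 per the file headers.

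Background was corrected by normexp with an offset of 50 and ratios were normalised by loess within arrays, in limma 3.58.1 under R 4.3.3 with data.table version 1.17.8. Outlier spots, 15 and 53, were left out and saturated spots kept. Ratios of both arrays, given the same direction, were averaged, a step tested on simulated data. The median mean signal was 207 to 265 and the median background 46.5 to 50. By the software, 94% to 96.8% of spots stood well above background. The 2 arrays give technical precision only, and 1 pool per genotype leaves the spread between animals unknown.

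Probes were named through RefSeq, GRCm38.p6, by accession (22072), another accession (142), symbol (663), older symbol (658) or product name (5), leaving 17634 unnamed here. Probe coordinates are those of the files. No source used here names their genome build, so probes were not placed in exons. A gene or probe is detected when well above background in at least 1 genotype on both arrays. The bound for Myl1 uses channel signals after loess and Aquantile. Named genes are all members, from each list up to 4 genes (highest, lowest and those past the rule; Ins2 was added after its values were seen), and the 5 genes nearest the members' median pair. Later steps used Python 3.11.15, numpy 2.4.6, pandas 2.3.3 and matplotlib 3.10.9.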

Additional observations from a re-analysis of the deposited data

How the results depend on the processing

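With 1 pool per genotype no spread between animals exists, and the arrays show technical error only. No paired analysis was possible because each genotype has 1 sample. A slide block could not be fitted for the same reason. The rule was passed by 8 member genes under the software's ratios, no offset, median centring, either array alone, probes well above background in both pools and the deposited series table. At 1.5-fold 9 passed and at 4-fold 5 did, and of the 19 probes 6 passed at 4-fold. With the median over a gene's probes 8 passed, with Myl3 in place of Myh1. The number of all genes higher and lower was 40 and 25, against 77 and 68 at 1.5-fold, 14 and 7 at 4-fold, 52 and 44 by the software's ratios, and 51 and 42 without an offset.

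The fast and the slow median log2 ratios were 2.77 and 2.46 by the software's ratios and in the deposited series table, 2.61 and 2.43 without an offset, and 1.98 and 1.87 with median centring. With the median over a gene's probes the fast median was 1.06, the value of Myh4, and the slow median 1.88. Counting the clone similar to Myh2 as its probe, a choice made after seeing the data, lowered Myh2 to 0.12. Another such choice, the Myh8 synonym clone and the Myh6 probes that list the Myh7 accession, left 13 probes past the rule. Of 81 member values under the alternatives, 37 moved beyond the spread between arrays, and all 81 stayed above 0. That spread was very small in some genes, so Myl2 counted as moved at 1.869 with median centring, against 1.876. Values of a single array cannot move beyond it. The 81 are not independent, since the series table repeats the software's ratios and each array alone is part of the main mean.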
